A study of Sus scrofa with 12 samples.

Results

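The enzymes of cholesterol synthesis were examined in the hypothalamus of pigs through 7 genes that span the route from acetyl-CoA units to cholesterol: HMGCS1, IDI1, FDFT1, SQLE, CYP51A1, SC4MOL (the older symbol of MSMO1) and DHCR7. Members were all probe sets whose platform symbol equals 1 of these names. This gave 6 of the 7 genes, among 13755 gene symbols on the array, and 10 probe sets out of 47722 probe sets on the array after the control rows were left out, and all 10 were among the 35791 probe sets bright enough to be tested. IDI1, an isomerase of the isoprenoid units, had no probe set under its name and was not measured. HMGCS1 and DHCR7 had 2 probe sets each, FDFT1 had 3, and the others had 1.

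The study compared 6 pigs of high with 6 pigs of low feed efficiency, each group with 3 males and 3 females, all 140 days old and each measured once on an Affymetrix Snowball array of total RNA from the hypothalamus. The question was which transcripts differ between pigs that use feed well and poorly. No treatment, allele or breed is named for either group, the labels do not say how feed efficiency was scored, and the pigs were separate animals by their identifiers. All males and 2 of the females carry identifiers from 301 to 310, whereas the other 4 females carry identifiers from 317 to 324, so sex and identifier run are partly tied.

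Brain makes nearly all of its own cholesterol, because lipoprotein cholesterol does not cross the blood-brain barrier in useful amounts. Oligodendrocytes need it for myelin, and astrocytes supply it to neurons. When sterol in the endoplasmic reticulum is low, the transcription factor SREBP2 is released by proteolysis and switches on the genes of the whole route together. The INSIG proteins are the sterol-dependent brake.

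The median log2 signal per array was 4.35 at the lowest and 4.42 at the highest, and no pair of arrays correlated above 0.982 or below 0.974. Of 10 markers of hypothalamic neurons and nuclei, 9 were tested, and 6 of these had a mean signal above the 69 background probe sets, whose means reached 7.49. None of the 4 tested anterior pituitary markers and none of the 6 choroid plexus markers lay above that limit. In whole tissue, fewer cells of a type and less RNA per cell cannot be told apart, and this holds for every level given here.

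The enzymes had nearly the same signal in both feed efficiency groups. HMGCS1, the cytosolic HMG-CoA synthase that opens the mevalonate route, ranged from 9.93 over a median of 10.10 to 10.26 in high pigs and from 9.95 over 10.07 to 10.26 in low pigs. FDFT1, squalene synthase, which commits the route to sterols, ranged from 8.54 over 8.85 to 9.05 in high and from 8.67 over 8.87 to 8.98 in low pigs. SQLE, squalene epoxidase, the first oxygen-requiring step, ranged from 8.59 over 8.69 to 8.88 in high and from 8.37 over 8.65 to 9.07 in low pigs. The groups overlapped in each of these 3 genes, and the low pigs were spread most widely for SQLE, with an SD of 0.26 against 0.11 in the high pigs.

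The same held after the sterol ring is closed. SC4MOL, the methylsterol monooxygenase that removes methyl groups from the sterol ring, ranged from 8.01 over 8.22 to 8.36 in high and from 7.94 over 8.21 to 8.38 in low pigs. DHCR7, the reductase of the last step to cholesterol, ranged from 6.67 over 7.09 to 7.23 in high and from 6.75 over 7.07 to 7.19 in low pigs. CYP51A1, the cytochrome P450 that demethylates lanosterol, ranged from 7.93 over 8.07 to 8.15 in high and from 8.07 over 8.16 to 8.26 in low pigs. It had the largest difference among the 6 genes at their brightest probe set, yet the groups still overlapped.

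**Figure D1:**
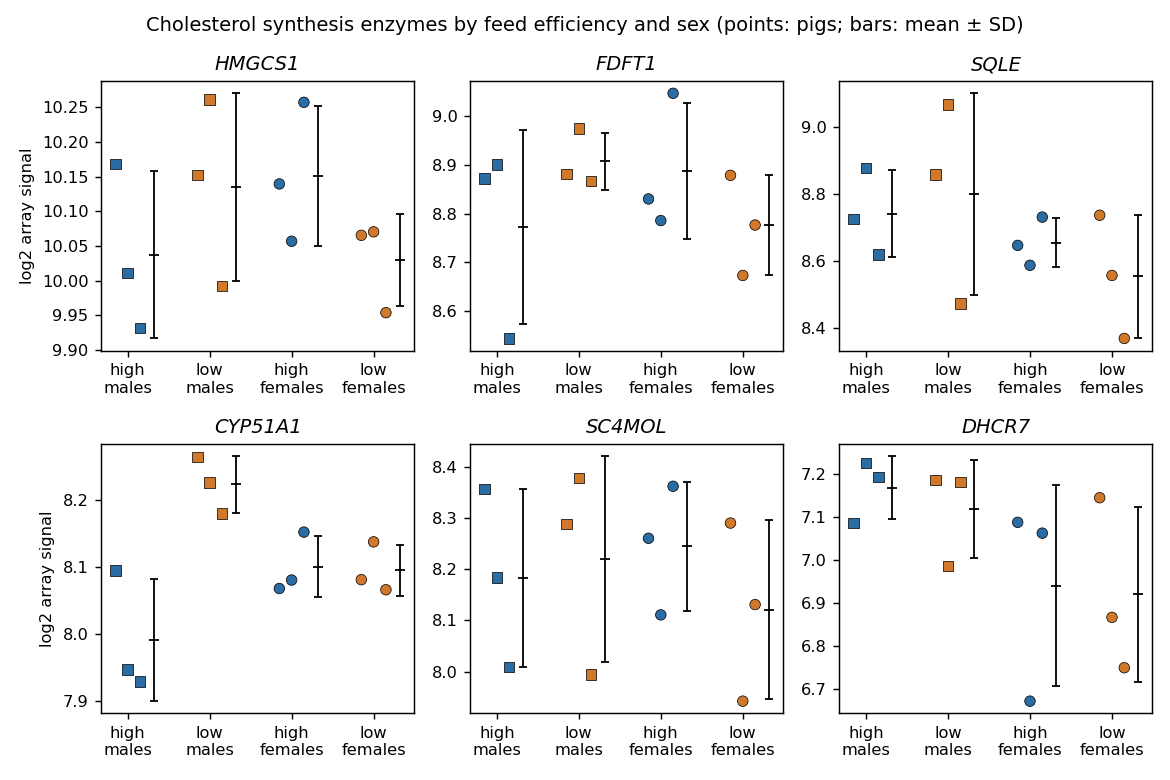
Log2 array signal of the 6 measured enzymes at their brightest probe set (y axes, separate range per gene) by feed efficiency and sex (x axes), with 1 point per pig and bars for mean ± SD (n = 3 per group). CYP51A1 is the gene whose low males (8.18 to 8.26) lie wholly above the high males (7.93 to 8.10), while its females overlap.

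Low minus high differences on the log2 scale, fitted by limma with sex as a term, were -0.012 ± 0.081 (SE) for HMGCS1, 0.012 ± 0.091 for FDFT1, -0.021 ± 0.11 for SQLE, 0.11 ± 0.069 for CYP51A1, -0.043 ± 0.10 for SC4MOL and -0.035 ± 0.097 for DHCR7. None of the 10 probe sets passed, against 0% of the 35791 probe sets at a limma adjusted p under 0.05, and the lowest adjusted p among the brightest probe sets was 0.819, for CYP51A1. Also at an unadjusted p under 0.05 there was 0 of 10, beside 2201 of the 35791. No member separated the 6 low from the 6 high pigs without overlap, beside 0.282% of all tested probe sets. The 95% intervals of all 10 probe sets lay between -0.52 and 0.29, so each excluded a 1.5-fold difference in array signal (0.58 on the log2 scale) in either direction. For both DHCR7 probe sets and the dimmer HMGCS1 probe set this says less about the transcript, since their mean signals of 7.04, 6.34 and 3.08 fell within the background range. The other probe sets of the same genes differed by -0.12 ± 0.097 (SE) for HMGCS1, by -0.051 ± 0.13 and -0.039 ± 0.11 for FDFT1 and by -0.11 ± 0.19 for DHCR7. The sign of the HMGCS1, FDFT1, SQLE, SC4MOL and DHCR7 differences turned when single pigs were left out.

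**Figure D2:**
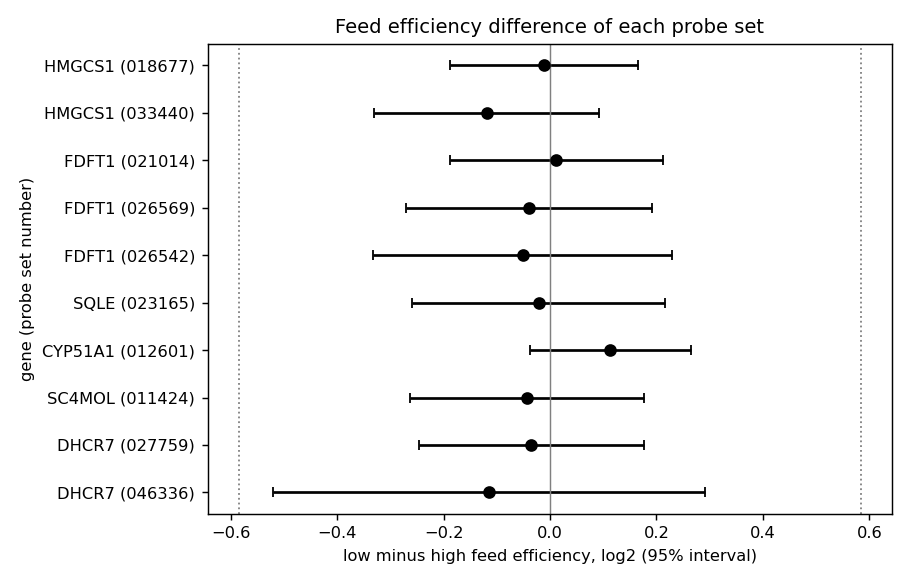
Low minus high feed efficiency difference of each of the 10 probe sets (x axis, log2 scale; points are limma estimates, bars 95% intervals) by gene and probe set number (y axis), with dotted lines at a 1.5-fold difference. Every interval crosses 0 and stays inside the dotted lines.

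Within males, CYP51A1 separated the feed efficiency groups without overlap, but the difference did not pass the test. The 3 high males stood at 8.10, 7.95 and 7.93 and the 3 low males at 8.26, 8.23 and 8.18. All low males thus lay above all high males. The 3 high females, at 8.07, 8.08 and 8.15, overlapped with the 3 low females, at 8.08, 8.14 and 8.07. The fitted difference was 0.23 ± 0.088 (SE, 95% interval 0.037 to 0.43) in males, an unadjusted p of 0.0239 and a limma adjusted p = 0.511, and -0.0053 ± 0.088 (SE) in females, limma adjusted p = 1.00. The interaction was -0.24 ± 0.12 (SE), with adjusted p = 0.844, and did not pass. In males 2 of the 10 member probe sets did not overlap, CYP51A1 and the dimmer DHCR7 probe set, the latter lower in low males, beside 14.3% of all tested probe sets. In females 0 of 10 did not overlap, beside 8.64%. At an adjusted p under 0.05 limma called 0 members within males, within females and for the interaction, beside 0.00838%, 0% and 0% of all tested probe sets. At an unadjusted p under 0.05 there was 1 of the 10 within males, CYP51A1, beside 3156 of the 35791. Within females and for the interaction there was 0 of 10, beside 1497 and 2174.

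At the brightest probe set, 5 of the 6 genes had a higher mean in low than in high males and 0 of the 6 in low than in high females. Over all 10 member probe sets these counts were 6 and 1, and over the 11 other tested enzymes of the route 2 and 4. The dimmer DHCR7 probe set had the opposite signs, with -0.43 ± 0.24 (SE) in males and 0.20 ± 0.24 in females. HMGCS1 differed by 0.098 ± 0.11 (SE) in males and by -0.12 ± 0.11 in females, and FDFT1 by 0.14 ± 0.12 and -0.11 ± 0.12. SC4MOL differed by 0.037 ± 0.14 and -0.12 ± 0.14, and SQLE by 0.059 ± 0.16 and -0.10 ± 0.16. None of these passed, and since the genes varied together across pigs, as described next, their signs are not separate pieces of evidence.

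Across the 12 pigs, SC4MOL, HMGCS1 and FDFT1 went up and down together at their brightest probe sets. SQLE and CYP51A1 had positive correlations with them that did not all pass, and DHCR7 had the lowest. Another FDFT1 probe set, nearly as bright, did not go with SC4MOL or HMGCS1, as given below. Of 15 pairs of the 6 genes, 14 had a positive Pearson correlation, the median was 0.52, and 8 pairs (53.3%) exceeded 0.5. Over all 79487136 pairs of named genes at their brightest probe set, the median was 0.0023 and 6.04% exceeded 0.5. The members share a pathway by choice, and all values come from the same 12 arrays.

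**Figure D3:**
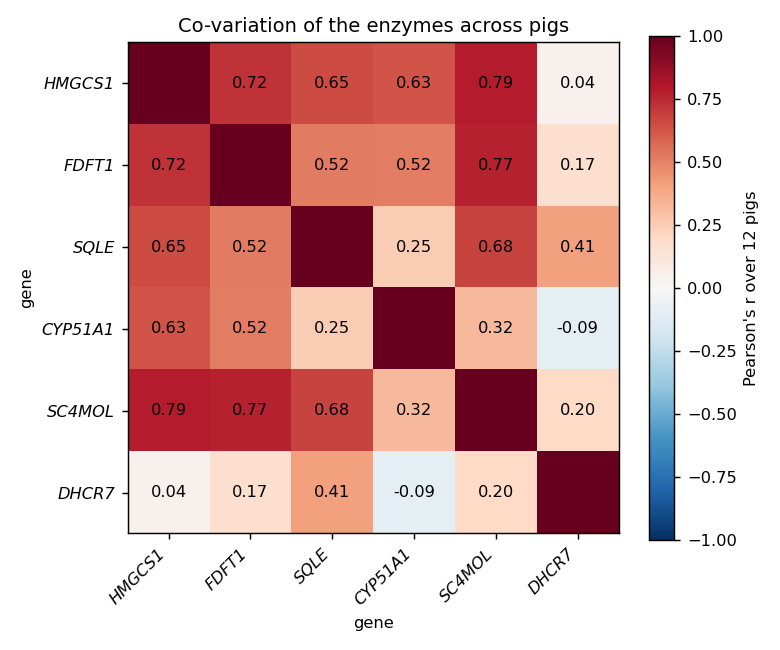
Pearson's r over 12 pigs for each pair of the 6 measured enzymes at their brightest probe set (colour and printed value; both axes list the genes in pathway order). HMGCS1, FDFT1, SQLE and SC4MOL have values from 0.52 to 0.79, a grouping made after the values were seen, and the DHCR7 row stays between -0.09 and 0.41.

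By Pearson's r at the brightest probe set, the closest pair was SC4MOL and HMGCS1, with r = 0.79 (permutation p = 0.0032, adjusted over the 15 pairs 0.024) and Spearman's rho = 0.77 (permutation p = 0.00544, adjusted 0.0265). SC4MOL and FDFT1 followed with r = 0.77 (permutation p = 0.0019, adjusted 0.024) and rho = 0.80 (permutation p = 0.00282, adjusted 0.0219). HMGCS1 and FDFT1 reached r = 0.72 (permutation p = 0.00643, adjusted 0.0321) and rho = 0.66 (permutation p = 0.0223, adjusted 0.0558). These were the 3 pairs past an adjusted p of 0.05 by Pearson's r. By rho there were 4, which added SC4MOL with SQLE (rho = 0.75) and SQLE with FDFT1 (rho = 0.80) and left out HMGCS1 with FDFT1. Without the 2 pigs farthest from the median of the first gene of each pair, r was 0.90, 0.87 and 0.51 for the 3 Pearson pairs. Without the 2 pigs farthest from the median of the members' mean standardized level instead (high feed efficiency replicate 3 and low feed efficiency replicate 2), r was 0.69, 0.72 and 0.56, and 0 pairs passed. Within the 8 pigs with identifiers from 301 to 310 it was 0.90 (exact permutation p = 0.00062), 0.65 (exact p = 0.0627) and 0.68 (exact p = 0.0524), while the other run held too few pigs, with 4, for a value. After each feed efficiency and sex group was centred on its own mean, the values were 0.79, 0.77 and 0.63.

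**Figure D4:**
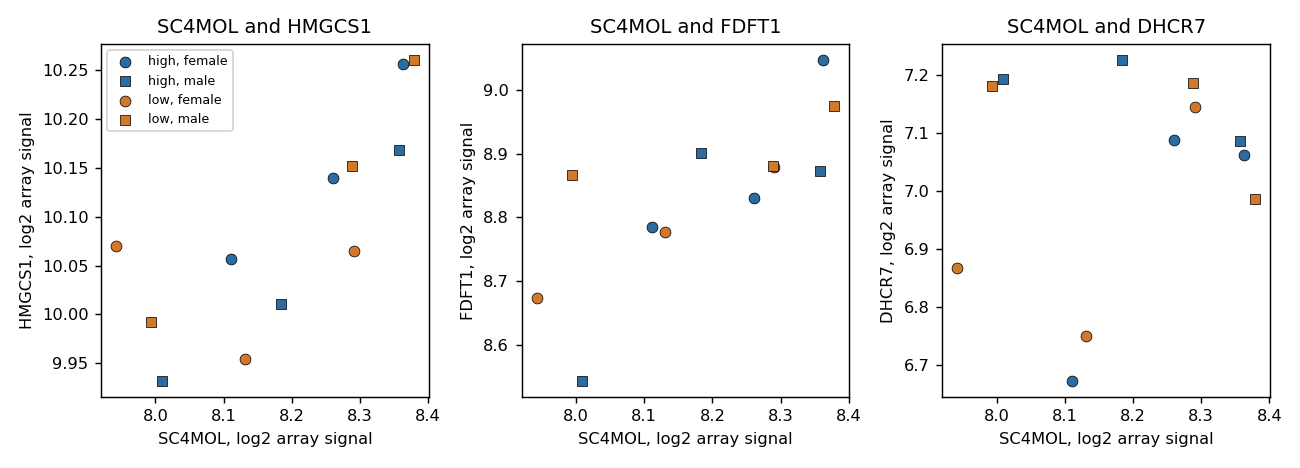
Log2 array signal of HMGCS1, FDFT1 and DHCR7 (y axes) against that of SC4MOL (x axes), with 1 point per pig, colour for feed efficiency and marker shape for sex. HMGCS1 and FDFT1 climb with SC4MOL (r = 0.79 and 0.77), whereas for DHCR7 (r = 0.20) 9 pigs lie between 6.99 and 7.23 and 3 females between 6.67 and 6.87.

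A few pigs stood at the same end for most genes. Low feed efficiency replicate 2, a male, had the highest signal of all 12 pigs for SC4MOL (8.38), HMGCS1 (10.26) and SQLE (9.07), the second highest for FDFT1 (8.98) and CYP51A1 (8.23), and only rank 9 for DHCR7. High feed efficiency replicate 6, a female, was first for FDFT1 (9.05) and second for SC4MOL (8.36) and HMGCS1 (10.26). At the other end, high feed efficiency replicate 3, a male, was last for HMGCS1 (9.93), FDFT1 (8.54) and CYP51A1 (7.93), and low feed efficiency replicate 6, a female, was last for SQLE (8.37). High and low pigs stood at both ends. Leaving out high feed efficiency replicate 3, high feed efficiency replicate 6 or low feed efficiency replicate 2 brought the pairs past the threshold from 3 to 0, with r from 0.63 to 0.76 in the 3 pairs, and leaving out high feed efficiency replicate 2 brought them to 5. After a further quantile normalization 0 pairs passed, with a median r of 0.38, and with array medians made equal 6 passed.

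The remaining pairs did not pass by Pearson's r. SC4MOL and SQLE had r = 0.68 (permutation p = 0.0155, adjusted 0.0582), HMGCS1 and SQLE 0.65 (permutation p = 0.0212, adjusted 0.0637), CYP51A1 and HMGCS1 0.63 (permutation p = 0.0289, adjusted 0.0723), and SQLE and FDFT1 0.52 (permutation p = 0.0817, adjusted 0.160). CYP51A1 had r = 0.52 with FDFT1, 0.32 with SC4MOL and 0.25 with SQLE. Its r with HMGCS1 was 0.93 over the high pigs alone (n = 6), 0.71 over the low pigs alone (n = 6), and 0.79 after the 4 group means were removed.

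DHCR7 had the lowest correlations, and its mean signal of 7.04 at the brightest probe set fell within the background range. The other 5 genes lay above that range at their brightest probe sets. The r of DHCR7 with these 5 genes lay between -0.09 and 0.41 over all pigs. Within males all 5 values were negative, from -0.45 with FDFT1 to -0.82 with HMGCS1, and within females all 5 were positive, from 0.18 with CYP51A1 to 0.76 with SQLE (n = 6 each). The difference between the sexes was not tested. In the 8 pigs with identifiers from 301 to 310, which include the 6 males, DHCR7 and HMGCS1 had r = -0.83 (exact permutation p = 0.0101, not adjusted for the 15 pairs). After that adjustment only SC4MOL with HMGCS1 passed in these pigs.

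Probe sets of a gene did not all vary alike. Both of the FDFT1 probe sets with the suffix s went together (r = 0.67), and the dimmer one, SNOWBALL_026542_s_st, had r = 0.88 with SC4MOL. The third FDFT1 probe set, SNOWBALL_026569_st, had r = -0.26 with the brightest and -0.60 with SQLE. It also had -0.10 with SC4MOL and -0.18 with the brightest HMGCS1 probe set. Its mean signal was 8.67, against 8.84 for the brightest FDFT1 probe set, and both lay above the background limit. The 2 probe sets of HMGCS1 had r = 0.029 and those of DHCR7 0.15. With every probe set kept apart, the median over 40 pairs of different genes was 0.18, and with all probe sets of a gene averaged it was 0.32, with 1 pair past the threshold. SC4MOL and HMGCS1 then had r = 0.51, SC4MOL and FDFT1 0.80, and HMGCS1 and FDFT1 0.42.

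Set against the whole array, SC4MOL, HMGCS1, FDFT1 and SQLE had other members among their closer partners, though not as the closest. CYP51A1 and DHCR7 did not. The places that follow are the best held by any of the 5 other members. SC4MOL ranked HMGCS1 at place 79 of 35790 probe sets by r, and FDFT1 ranked SC4MOL at place 100 of 35788. HMGCS1 ranked SC4MOL at 125, and SQLE ranked SC4MOL at 248. CYP51A1 and DHCR7 had no member nearer than place 1737 (HMGCS1) and 4098 (SQLE). When each member's level was used as the regressor in limma over all probe sets, 0 of the 5 other members passed for any of the 6 genes. The background was 0.00279% for HMGCS1, a single probe set without a gene name (SNOWBALL_038631_st, r = -0.95, adjusted p = 0.00768), and 0% for the other 5. At an unadjusted p under 0.05, 3 of the 5 others passed on SC4MOL and on HMGCS1, 2 on FDFT1, 1 on SQLE and 0 on CYP51A1 and DHCR7, while 2132, 2802, 2519, 1722, 4281 and 2430 of all probe sets did so.

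Over 12 pigs the SD on the log2 scale was 0.10 for CYP51A1, 0.11 for HMGCS1, 0.13 for FDFT1, 0.15 for SC4MOL, 0.18 for DHCR7 and 0.19 for SQLE. Of the probe sets within 0.5 of the same mean signal, 82.7% had a smaller SD than SQLE, 63.3% than SC4MOL, 61.7% than DHCR7, 53.6% than FDFT1, 46.0% than HMGCS1 and 20.7% than CYP51A1. SQLE was thus the member that varied most from pig to pig for its brightness, and CYP51A1 the one that varied least.

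No member passed for sex, and DHCR7 and SQLE had the largest differences at their brightest probe set. DHCR7 stood at 6.99 to 7.23 in males with a median of 7.18 and at 6.67 to 7.14 in females with a median of 6.96, a female minus male difference of -0.21 ± 0.097 (SE; unadjusted p = 0.0491, limma adjusted p = 0.996). It was the 1 of 10 probe sets with an unadjusted p under 0.05, beside 1698 of 35791, and 0 members were called beside 0.0224% of all tested probe sets. The 2 females with identifiers from 301 to 310 stood at 7.09 and 7.14, within the range of the males, and the 4 females with identifiers from 317 to 324 at 6.67, 7.06, 6.87 and 6.75. With the identifier run as a term the difference was -0.027 ± 0.12 (SE), and within the first run alone -0.027 ± 0.11. Both fits give the same difference because the second run holds no males, so it rests on the 2 females of the first run. The labels do not explain the runs, and their part in the difference was not tested beyond these values. The dimmer DHCR7 probe set differed by -0.36 ± 0.19 (SE), and had a mean of 6.15 in the 2 females of the first run and 6.18 in the 4 of the second. SQLE stood at 8.77 ± 0.21 (SD, n = 6) in males and 8.60 ± 0.14 (SD, n = 6) in females. The difference was -0.17 ± 0.11 (SE), and -0.079 ± 0.16 (SE) with the run as a term. The other 4 genes differed by -0.019 to 0.0043 at their brightest probe set.

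The other enzymes of the route were taken from a list of 16, of which 11 were tested. For feed efficiency, 0 of the 11 passed, 4 were higher and 7 lower in low pigs, and the median difference was -0.042 on the log2 scale, against -0.016 for the 6 members and -0.0017 over 12609 named genes. HSD17B7, a sterol ketone reductase that acts beside SC4MOL, differed by 0.098 ± 0.076 (SE), EBP, the sterol isomerase, by -0.084 ± 0.076, and MVD and MVK, of the mevalonate segment, by -0.11 ± 0.11 and -0.088 ± 0.096.

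Correlations within this list had both signs, and these and the following correlations of list genes are descriptions over the same 12 pigs, with no test. With the mean standardized level of the 6 members (each gene centred and divided by its SD, then averaged per pig), HSD17B7 had r = 0.75, NSDHL, the decarboxylating dehydrogenase that partners SC4MOL, 0.55, and ACAT2, which makes acetoacetyl-CoA for HMGCS1, 0.52. Only 4 of the 11 had a mean signal above the background limit of 7.49, and HSD17B7 (6.73) and PMVK (5.54) were among those below it. HSD17B7 held place 55 of 12603 named genes, with r = 0.84 to CYP51A1 and 0.78 to HMGCS1. LSS, which closes the sterol ring between SQLE and CYP51A1, had r = -0.58, PMVK, phosphomevalonate kinase, -0.64 and MVD -0.39. Of the 11 genes, 7 were positive and 3 (27.3%) above 0.5, with a median of 0.17. Over the 12603 named genes outside the members, 51.2% were positive, 7.39% were above 0.5 and the median was 0.012.

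Among the regulators, INSIG1, the sterol-sensing brake on SREBP whose gene is itself an SREBP target, went most closely with FDFT1. Its brightest probe set had r = 0.88 with FDFT1, second to PTGFRN (0.89) among all named genes. With the members' mean level the brightest INSIG1 probe set had r = 0.68 and the other INSIG1 probe set 0.39. The brightest INSIG1 probe set also had 0.67 with CYP51A1 and 0.61 with HMGCS1. SREBF1, which encodes SREBP1, had r = 0.60 with the members' mean level and TMEM97, a sterol-regulated membrane protein gene, 0.59. SREBF2, which encodes the SREBP2 of sterol synthesis, had 0.097. MBTPS1, the protease that makes the first cut in SREBP, and NPC2, which moves cholesterol out of lysosomes, had -0.51 and -0.52. In this list of 16, 12 were tested, 7 were positive and 3 above 0.5. Of the 12, 4 had a mean signal above the background limit. MBTPS1 (7.41), INSIG1 (7.31), INSIG2 (5.52), STARD4 (4.55) and NPC1L1 (3.66) were among those below it. For feed efficiency 0 of 12 passed, and the genes of smallest p were INSIG2, another INSIG gene, at 0.37 ± 0.17 (SE), the sterol transporter gene NPC1L1 at -0.20 ± 0.10, MBTPS2, the second SREBP protease, at 0.092 ± 0.073 and STARD4, a sterol carrier, at 0.21 ± 0.18.

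SREBP targets outside the sterol route also went with the members in part. Of 14 genes on the fatty acid list, 11 were tested and 4 (36.4%) were above 0.5. These were ELOVL5, a fatty acid elongase, at 0.73, ME1, malic enzyme, at 0.65, ACSL3, an acyl-CoA synthetase, at 0.54 and INSIG1 at 0.68. INSIG1 is the regulator gene given above, which this list shares. FASN and ACLY, fatty acid synthase and ATP citrate lyase, had -0.078 and -0.067. The mean of this list had r = 0.74 with the members' mean level (rho = 0.75), from -0.066 with DHCR7 over 0.38 with SQLE to 0.94 with FDFT1. That mean includes INSIG1, which alone had r = 0.88 with FDFT1. The means of the other lists had r = 0.027 for the other cholesterol enzymes, 0.37 for SREBP regulation, 0.14 for the isoprenoid branches and -0.47 for sterol export. For feed efficiency 0 of 11 passed, with ACSL3 at 0.13 ± 0.10 (SE), ACLY at 0.10 ± 0.079, ACACA at -0.078 ± 0.074 and FADS2 at -0.080 ± 0.10.

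Genes of sterol export had no close positive partner among them. Of 19 genes for efflux, the sterol sensor LXR and sterol removal, 16 were tested, 7 were positive with the members' mean level and 0 above 0.5, with a median of -0.16, and 5 had a mean signal above the background limit. MYLIP, which marks the LDL receptor for degradation, had -0.56, APOE, the main lipoprotein of brain, -0.51 and LRP1, a receptor for it, -0.48. LRP1 was also the gene of smallest p for feed efficiency here, at 10.67 ± 0.12 in high and 10.48 ± 0.066 in low pigs (SD, n = 6 each), a difference of -0.19 ± 0.074 (SE; unadjusted p = 0.0243, limma adjusted p = 0.796). The sterol exporters ABCG4, ABCG1 and ABCA1 differed by -0.22 ± 0.10, 0.15 ± 0.096 and -0.11 ± 0.078 (SE). None of the 16 passed. Of 10 genes on the branches that leave the route at farnesyl diphosphate, 9 were tested and 0 passed, with FNTB, PDSS2, DHDDS and FDPS at -0.16 ± 0.083, -0.12 ± 0.089, 0.065 ± 0.081 and -0.044 ± 0.070 (SE), and 0 of the 9 had r above 0.5.

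**Figure D5:**
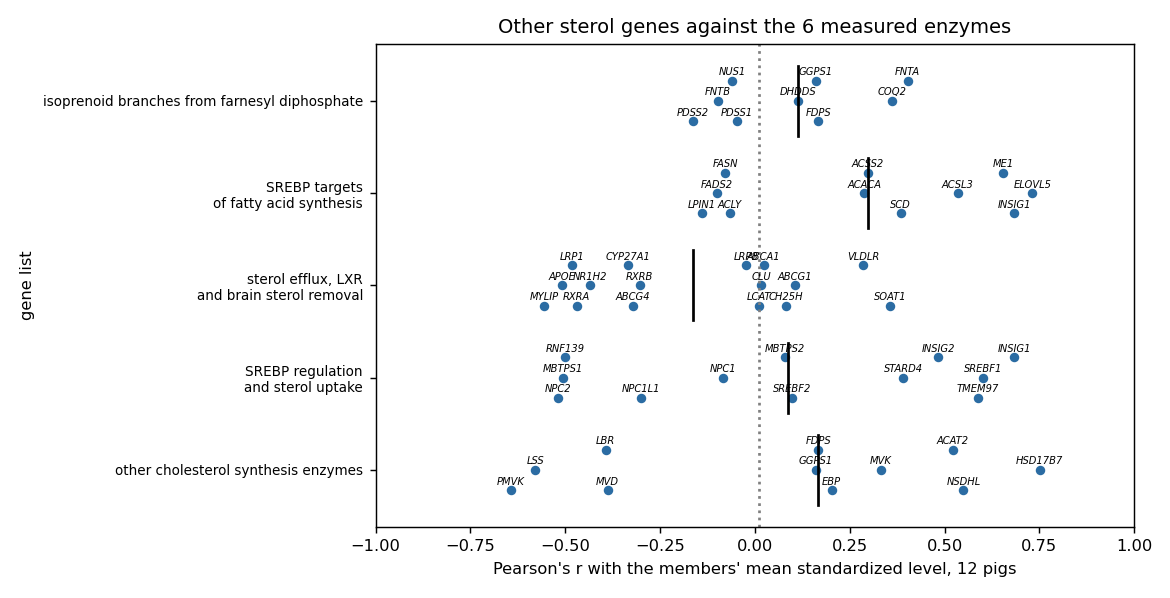
Pearson's r over 12 pigs (x axis) of each tested gene in 5 lists of sterol-related genes (y axis) with the mean standardized level of the 6 measured enzymes; black bars are list medians and the dotted line is the median of all 12603 named genes (0.012). HSD17B7 (0.75) and ELOVL5 (0.73) lie farthest right and PMVK (-0.64) farthest left.

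Cell type markers were set beside this co-variation, since myelin-forming cells and astrocytes are the main sterol makers. The mean of the 11 oligodendrocyte markers tested of 12 had r = 0.13 with the members' mean level (rho = 0.11), with 6 of 11 genes positive, and ranged from 9.44 to 9.65 in high and from 9.16 to 9.75 in low pigs. For the 8 astrocyte markers r was 0.23 (rho = 0.31), with a range of 10.07 to 10.36 in high and 10.14 to 10.31 in low pigs, and for the 8 neuron markers tested of 10 it was 0.12 (rho = 0.12), with ranges of 8.41 to 8.61 and 8.56 to 8.73. All 8 of these neuron markers were higher in low pigs, by a median of 0.096, and 0 passed. Of the 9 hypothalamus markers tested, 1 was higher and 8 were lower in low pigs, with a median of -0.071, and 0 passed. Over all 12609 named genes, 6238 were higher in low pigs. The value farthest from 0 among the 10 marker lists was that of the 4 anterior pituitary markers tested, at r = -0.52 (rho = -0.34), with -0.57 to SQLE and -0.55 to HMGCS1, 0 of 4 positive and 0 above the background limit. Their mean ranged from 3.79 to 5.24 in high and from 4.02 to 5.88 in low pigs. The 6 choroid plexus markers had r = -0.36 (rho = -0.33), with ranges of 4.66 to 5.15 and 4.82 to 5.38. The 9 hypothalamus markers had 0.26 (rho = 0.14), with 0.61 to SQLE and 0.53 to DHCR7, and ranges of 8.01 to 8.33 and 7.94 to 8.23. The part of these cell types in the co-variation was not tested. Among single members and the 10 marker lists, the value farthest from 0 was DHCR7 with the mean of 7 endothelial markers (r = 0.75). It was picked after the values were seen. Of the 7 markers, 2 lay above the background limit. Their mean was 6.10 to 6.39 in males and 5.90 to 6.16 in females, and its part in the DHCR7 values was not tested. The array median itself had r = -0.54 with the members' mean level (rho = -0.59) and the mean of the background probe sets -0.39 (rho = -0.46). With the array median regressed out, the median r over the 15 pairs was 0.43, and 2 pairs passed. SC4MOL then had r = 0.81 with HMGCS1 and 0.80 with FDFT1, and HMGCS1 and FDFT1 had 0.62.

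The named genes most like the members' mean level over the 12 pigs were not sterol genes. FYTTD1, an mRNA export adaptor, had r = 0.93, with 0.89 to HMGCS1, 0.81 to CYP51A1 and 0.18 to DHCR7. HOXA9 (0.88, at a mean signal of 3.86), the autophagy gene ATG12 (0.87), the chromatin gene ARID1B (0.86), CHMP1B (0.86), UBE2W (0.85), the mTOR pathway GTPase gene RRAGC (0.85), CNOT4 (0.85), RHOQ (0.84) and the iron exporter gene SLC40A1 (0.83) followed. The least like were STARD13 (-0.87), ELMOD3 (-0.86), IL28B (-0.85), PVALB1 (-0.84) and RPRM (-0.83). With the members' mean level, r of the other probe sets averaged -0.11 for ARID1B, 0.076 for CNOT4 and 0.60 for ATG12. The other probe set had 0.22 for CHMP1B, 0.63 for UBE2W, 0.28 for SLC40A1 and 0.022 for STARD13. Gene by gene, the 2 most like CYP51A1 were UBLCP1 (0.95) and the immediate early gene JUN (0.93), those most like SC4MOL were FAM81A (0.88) and ARHGAP6 (0.88), and those most like HMGCS1 were RHOQ (0.92) and FYTTD1. SQLE went most closely with CXADR (0.91) and LOC100513133 (0.88), and DHCR7 with SAP30BP (0.91) and PSENEN (0.89). Those most like FDFT1 were PTGFRN (0.89) and the sterol regulator gene INSIG1 (0.88), as given above. Of the 25 genes most or least alike, 6 had a mean signal above the background limit, FYTTD1, ARID1B, CNOT4, RHOQ, RPRM and PSENEN. The genes were picked as the extremes of 12603 values over 12 pigs, and no test was made of them.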

How the data were processed

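Hypothalamus RNA of 12 pigs was measured on 12 arrays. The values are those of the table the authors deposited, 1 per probe set and array, taken as log2 because they run from 0.381 to 14.2 with like medians; no source states the scale, background correction, summary or normalization. The submitters' processing notes name GCOS 1.1.1. Gene symbols come from the platform annotation, which can be old. Control rows (123 of 47845) and the dimmest 25% of the other probe sets (mean below 2.43) were left out.

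Groups were compared with limma 3.58.1 in R 4.3.3 on the whole table, with Benjamini-Hochberg adjustment over 35791 probe sets: feed efficiency with sex as a term, sex with feed efficiency as a term, and a fit of the 4 groups for the interaction and each sex. Of several probe sets of a gene, the one with the highest mean stood for it. Pairs were tested with 100000 permutations (all orders for 8 pigs), two-sided, adjusted over 15 pairs. Scripts were tested on simulated data. The number of arrays limits the precision.

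Members, lists and tests were chosen with earlier results of these data known. The text names every member, up to 4 genes per list by smallest unadjusted p for feed efficiency, the 10 most and 5 least alike genes and the 2 most like each member; other list genes are shown for their correlation, chosen after their values were seen. Promoter and protein sequences were not analysed here. Same-numbered pigs were checked as possible pairs: deviations from group means correlated from -0.0028 to 0.088, so the numbers were not taken to pair them. Alternatives were other filters, normalizations, gene summaries, covariates and thresholds, and leaving out each pig. Plots used matplotlib 3.10.9.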

Additional observations from a re-analysis of the deposited data

Results flagged for a closer look

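Each feed efficiency group of 6 was searched for a pig far from the others in each of the 10 member probe sets, which is 20 groups, of which chance alone marks about 1 in 20. There were 2, both at the low end of the high group and both from high feed efficiency replicate 5, a female. Its brightest DHCR7 probe set stood at 6.67, where the other 5 high pigs lay at 7.06 to 7.23. Its dimmer HMGCS1 probe set stood at 2.80, within the background range. In the brightest HMGCS1 probe set the same pig, at 10.06, lay inside its group. No member differed in its feed efficiency effect between the sexes by a test of that difference.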

How the results depend on the processing

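Under every alternative run, limma called 0 members for feed efficiency, sex and the interaction, and 0 as partners of CYP51A1, also with each pig left out in turn. With the replicate block, the CYP51A1 difference stayed 0.11 (adjusted p = 0.833), and no member was called for feed efficiency, the comparison the block was run for. The pairs past the threshold, 3 in the report, were 0 after a further quantile normalization, 6 with equal array medians, 1 with probe sets averaged, 5 after removing group means, 1 within the identifiers from 301 to 310 and 0 without the 2 pigs farthest from the median of the members' mean level (high feed efficiency replicate 3 and low feed efficiency replicate 2). They were 4 by Spearman's rho, 4 of 40 with every probe set kept apart and 2 after regression on the array median. Without single pigs they ranged from 0 to 5. For the count after removing group means, values were permuted across all pigs. The 4 means removed were not allowed for, so that count can be too high. Besides leaving out single pigs, 8 alternatives gave r for the 3 pairs. HMGCS1 with FDFT1 did not pass in 7 of the 8, and SC4MOL with HMGCS1 and SC4MOL with FDFT1 did not in 3 each. The median r of 0.52 was 0.380 after quantile normalization, 0.323 with probe sets averaged, 0.176 with every probe set kept apart and 0.428 after regression on the array median, an alternative added after the data were seen, and 0.444 to 0.553 without single pigs; the cause was not tested. Differences near 0 changed sign: HMGCS1 was 0.010 and SQLE 0.00083 with equal array medians, and FDFT1 was -0.026 with probe sets averaged. Without single pigs, HMGCS1 ranged from -0.052 to 0.024, SQLE from -0.090 to 0.043, FDFT1 from -0.053 to 0.061, SC4MOL from -0.091 to 0.0055 and DHCR7 from -0.097 to 0.00088. CYP51A1 stayed positive, from 0.087 to 0.14, and from 0.20 to 0.28 within males. Signals within the background range limit DHCR7, the dimmer HMGCS1 probe set and several list genes named in the report.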
